A study of Homo sapiens with 4 samples.

Results

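The histone gene cluster on chromosome 6 was taken as the regions of 2 deposited count tables that lie between positions 26000000 and 28000000 of chromosome 6 (GRCh38) and whose nearest gene carries a histone name. A region here is a stretch of 1 strand with its own read count. The rule gave 1551 of 2310971 regions in the Input table and 2028 of 3814162 regions in the J2 table. These regions name 52 genes, and summing them by gene and strand gave 103 sums, or 313 sums when the annotation class was kept apart. GENCODE 29 lists 53 protein-coding histone genes in the window, and 1 of them named no region.

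Nucleosomes hold DNA wound around H2A-H2B dimers and an H3-H4 tetramer, and H1 proteins bind the linker DNA. The genes of this cluster are mostly replication-dependent: they are transcribed in S phase, lack introns, and end in a stem-loop instead of a poly(A) tail. The stem-loop is bound by SLBP, and cleavage just past it, guided by the U7 small nuclear ribonucleoprotein, makes the 3′ end. Several of the genes also have longer, polyadenylated forms that run past the stem-loop.

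The 4 libraries came from NCI-H1944, an established lung adenocarcinoma cell line that the labels give as WT. Cells were exposed to MPS1i, the MPS1 kinase inhibitor BAY-1217389, at 100 nM or to the solvent DMSO for 48 h, and the drug was then washed out for 24 h. MPS1, also called TTK, is the kinase that holds the spindle checkpoint. From each culture 10% of the lysate gave total RNA (Input), and the remainder was precipitated with the J2 antibody, which recognises double-stranded RNA. Each fraction of each culture gave 1 library, 4 in all. Without replicates no difference has a replicate check, so every ratio below compares libraries, not conditions, and each 95% interval covers counting error only.

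The sequence element that ends a histone transcript is shown first, since reads past it are described below. It was found in GENCODE 29 transcripts (GRCh38) of 20 of the 24 genes whose transcript runs past the coding end, between 26 and 54 bases after it. Each site is 16 bases, 5′ to 3′, and capitals mark the paired stem.

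Stem-loop of 9 genes, HIST1H2AC, HIST1H2AE, HIST1H2AI, HIST1H2BE, HIST1H2BG, HIST1H2BH, HIST1H2BL, HIST1H2BN and HIST1H3H: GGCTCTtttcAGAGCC
Stem-loop of 4 genes, HIST1H2BC, HIST1H2BD, HIST1H2BF and HIST1H3G: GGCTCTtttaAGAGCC
Stem-loop of 4 genes, HIST1H4B, HIST1H4E, HIST1H4H and HIST1H4J: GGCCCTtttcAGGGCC
Stem-loop of HIST1H4I: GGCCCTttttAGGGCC
Stem-loop of HIST1H3E: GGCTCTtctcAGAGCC
Stem-loop of HIST1H2AG: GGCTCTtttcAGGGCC

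The H4 sites differ from all the others in the first arm of the stem, and from all but HIST1H2AG in the second. The H4 site shared by 4 genes has the same loop as the site shared by 9. The site of HIST1H2AI, whose downstream reads are described below, lies at chr6:27808647-27808662 on the plus strand, and that of HIST1H2BG at chr6:26216218-26216233 on the minus strand.

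A pair of promoters is also shown, of the genes on which the most-read stretches of the cluster lie: HIST1H2BO shares its upstream bases with the divergent gene HIST1H2AM, and HIST1H2BK shares its own with HIST1H2AH. Both sequences are from RefSeq (GRCh38.p14), run 5′ to 3′ on the strand of the named H2B gene, and hold only the bases between the annotated genes. Capitals mark matches, on either strand, to the octamer ATTTGCAT, the TATA motif TATAAA and the motif CCAAT. Neighbouring TATA matches overlap in HIST1H2BK.

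HIST1H2BO, chr6:27893186-27893424, plus strand, 239 bases: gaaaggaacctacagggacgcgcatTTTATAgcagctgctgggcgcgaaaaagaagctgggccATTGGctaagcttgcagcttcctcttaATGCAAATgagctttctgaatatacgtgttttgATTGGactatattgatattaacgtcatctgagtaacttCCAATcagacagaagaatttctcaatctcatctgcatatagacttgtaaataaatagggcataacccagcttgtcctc
HIST1H2BK, chr6:27146859-27147105, minus strand, 247 bases: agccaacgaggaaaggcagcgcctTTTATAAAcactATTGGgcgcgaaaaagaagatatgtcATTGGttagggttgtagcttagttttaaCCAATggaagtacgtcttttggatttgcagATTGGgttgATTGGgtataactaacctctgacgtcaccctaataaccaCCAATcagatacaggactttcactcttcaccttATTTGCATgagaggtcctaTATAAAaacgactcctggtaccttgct

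RefSeq promoters were matched for 48 cluster genes. In the 250 bases before the start, the octamer was found in 20 of the 48 (41.7%), against 1.66% of all 27305 RefSeq promoters of the same length. It was in 11 of 14 H2B and 8 of 10 H2A promoters, in 1 of 8 H3 promoters, and in 0 of 10 H4 and 0 of 6 H1 promoters. Divergent genes such as those printed share upstream bases, so a shared site may count for both genes. The TATA motif was in 64.6% against 11.1%, and CCAAT in 85.4% against 33.0%. A match describes the letters in the window and is not shown to be a bound site.

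The Input table summed to 6381610 counts with DMSO and 4844956 with MPS1i, and the J2 table to 9793355 and 6697479. Values for all 4 libraries are given in that order from here on. The 8 epithelial markers summed to 725, 532, 624 and 357 reads and did not move as one. KRT8 had 509, 342, 170 and 144 reads, CDH1 102, 70, 418 and 165, KRT7 78, 94, 14 and 27, and EPCAM 13, 0, 13 and 4. The lung markers NKX2-1 and SFTPB had at most 3 reads in any library. Leukocyte markers named regions for 4 of 5 genes and summed to 0, 48, 10 and 88 reads. LYZ held most of them, at 0, 32, 8 and 56, and PTPRC had 0, 12, 1 and 14 reads. Fibroblast markers summed to 0, 15, 8 and 15 reads, most of them from COL3A1 (0, 12, 6 and 12), with COL1A1 at 0 in every library. The leukocyte and fibroblast sums were higher in the MPS1i library of each pair, as were the histone sums, and their part in the results was not tested.

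The histone regions held 7192 reads in DMSO Input and 11375 in MPS1i Input, or 1127 and 2348 CPM (the count scaled to the library total). In the J2 libraries they held 3788 reads with DMSO and 7517 with MPS1i, or 387 and 1122 CPM. Both MPS1i libraries thus carried more histone cluster RNA per read sequenced than their DMSO partner, and both Input libraries more than the J2 library of the same cells. The first kept its direction in the settings tried, from 0.71 to 1.54 in J2 and from 0.68 to 1.51 in Input on the log2 scale, but the second rests on few regions: the log2 ratio of J2 to Input, -1.54 with DMSO and -1.06 with MPS1i, was -0.06 and -0.08 without the most-read region of each sum, and 0.26 and 0.12 over regions that overlap the annotated gene on its strand. As a share of the library this was 0.113% (Wilson 95% interval 0.110% to 0.115%) against 0.235% (0.231% to 0.239%) in Input. The other regions of the same window held 1256, 1480, 1665 and 1888 reads.

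A gene-and-strand sum was called higher or lower when its pair of libraries held 50 reads or more, its CPM differed by 2-fold or more, and 1 lay outside the 95% interval (exact, Clopper-Pearson) of the ratio. In Input, 49 of the 103 sums had enough reads, and 33 were called higher with MPS1i, 3 lower and 13 neither. Over all sums of the Input table that had enough reads, 20.5% were called higher and 11.8% lower. The median log2 ratio was 1.54 for the histone sums and 0.06 for all 21667 sums. In J2, 40 histone sums had enough reads, of which 31 were called higher, 0 lower and 9 neither, against 26.0% higher and 13.5% lower over the table. The median log2 ratio was 1.92 for these sums and 0.16 for all 24192 sums. Scaling with edgeR TMM factors moved the median of all sums by -0.29 in Input and -0.57 in J2, and left 29 and 26 histone sums called higher. By single regions the picture was alike: 21 of 30 Input regions with enough reads were called higher and 2 lower, against 16.3% and 14.4% of all such regions, and 25 of 40 J2 regions higher and 0 lower, against 12.5% and 27.2%.

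**Figure D1:**
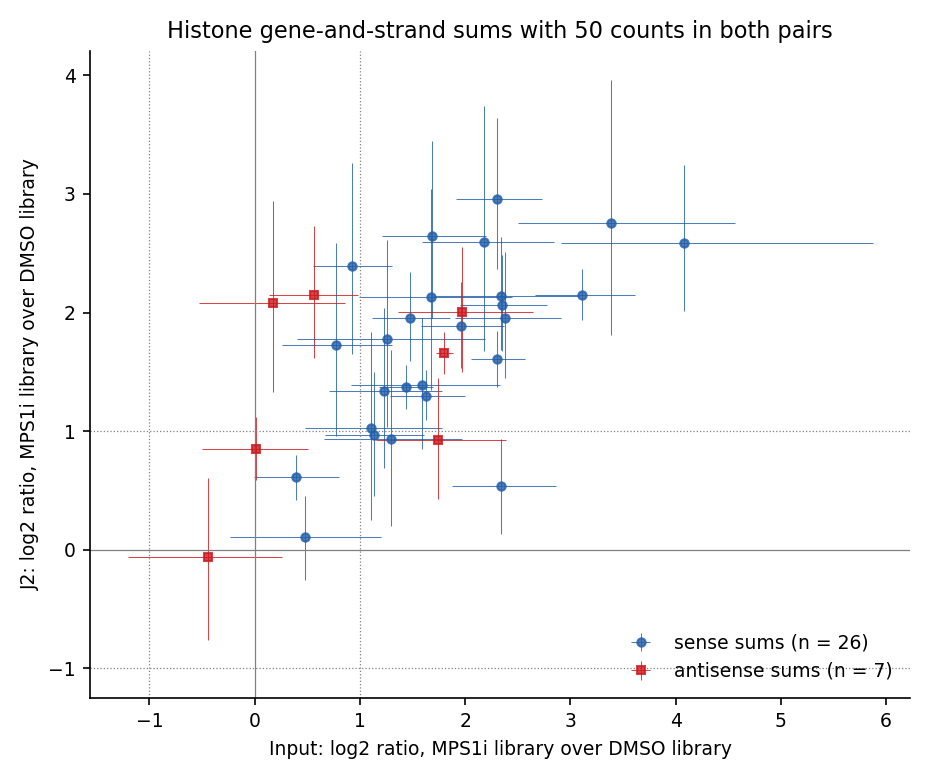
Each point is 1 histone gene-and-strand sum with at least 50 reads in both pairs; the x axis gives the log2 ratio of CPM between the Input libraries, the y axis that between the J2 libraries, bars are 95% counting intervals, and dotted lines mark 2-fold. All 26 sense sums lie above 0 on both axes, and 6 of 7 antisense sums do.

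Sums are named for the gene with the nearest start, which is not always the gene the region lies in. The largest sum, HIST1H4I on the minus strand, had 1724, 4559, 403 and 870 reads. In Input nearly all of it, 1691 and 4469 reads, came from 1 stretch within the long RefSeq form of HIST1H2BK, an H2B gene. The results below therefore place each region by its position against the annotated genes. A region was set down as sense or antisense over a coding exon, as sense within an annotated gene outside its coding exon, as sense within 10 kb past an annotated end, or as elsewhere.

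No region of either table overlapped a histone coding exon on the gene's own strand (0 of 1551 and 0 of 2028), so the body of the mature histone messages was not measured. Over all genes such regions were few but well read. They were 0.0823% of Input regions, holding 13.0% of DMSO and 14.6% of MPS1i reads, and 0.0720% of J2 regions, holding 8.01% and 10.4%. Regions over a coding exon on the opposite strand were 2.08% and 1.52% of regions, and held 8.22% and 8.48% of Input reads and 6.86% and 8.62% of J2 reads. The histone reads described here are antisense to the coding exons or lie outside them.

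**Figure D2:**
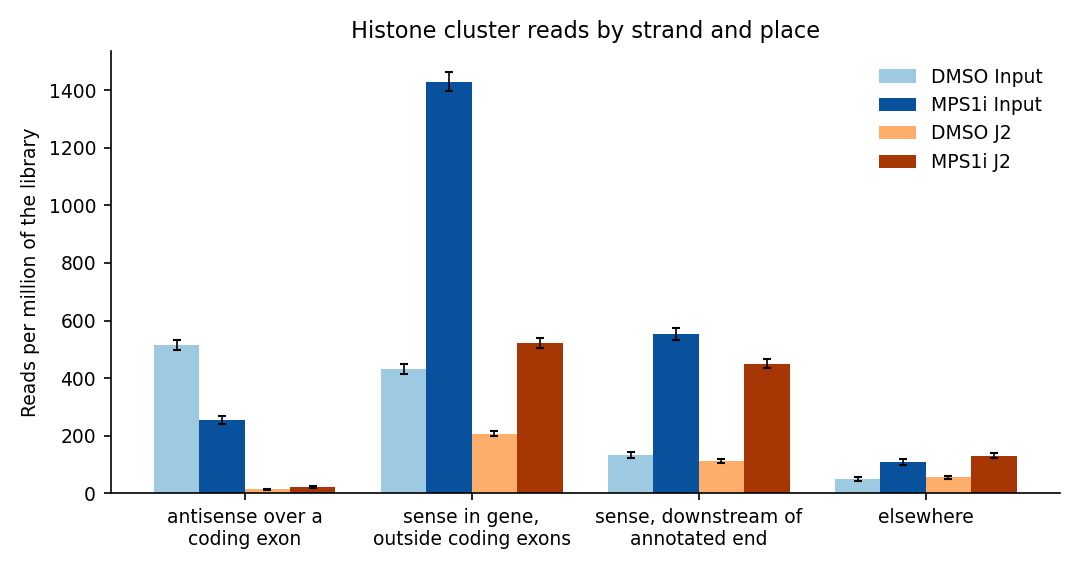
Bars give histone cluster CPM in each of the 4 libraries, by the place of the region against annotated histone genes; error bars are exact Poisson 95% intervals of the counts. Antisense reads over coding exons are lower in MPS1i Input than in DMSO Input (254 against 514 CPM), while sense reads downstream of annotated ends are higher with MPS1i in both Input (554 against 132 CPM) and J2 (450 against 112 CPM).

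Antisense reads over coding exons went the other way from the remaining reads in Input. They made up 3283 of the reads in DMSO Input and 1233 in MPS1i Input, or 45.6% (44.5% to 46.8%) and 10.8% (10.3% to 11.4%) of the cluster's reads. The log2 ratio was -1.02 (-1.11 to -0.92). In J2 there were 131 and 135 such reads, or 3.46% and 1.80% of the cluster's reads, with a log2 ratio of 0.59 (0.23 to 0.95) that TMM scaling brought to 0.02. Both Input libraries thus held many antisense reads and both J2 libraries few.

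In Input 1 region carried most of them. It lies at chr6:27893189-27893898 on the minus strand, over the whole single exon of HIST1H2BO (plus strand, chr6:27893463-27893843 in GENCODE 29) and almost all of the shared promoter printed above. It had 2259 reads in DMSO Input and 902 in MPS1i Input, a log2 ratio of -0.93 (-1.04 to -0.82), short of 2-fold. The J2 region inside it had 25 and 17 reads. On the other side of the same promoter, the plus-strand region chr6:27892577-27893313, antisense over HIST1H2AM, had 134 and 45 reads in Input and was called lower (-1.17, interval -1.70 to -0.68). It had 0 and 2 reads in J2, under the limit of 3 counts that a count of 0 allows.

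Without the most-read stretches, antisense reads in Input were still 1024 with DMSO and 331 with MPS1i (log2 ratio -1.23, -1.42 to -1.05), and 106 and 118 in J2. The lower level was spread over the cluster: of 49 genes with any antisense read in Input, 42 had a lower CPM with MPS1i and 7 a higher one. Over all protein-coding genes with antisense reads over coding exons in Input, 47.6% had a higher CPM. Only 5 histone genes had 50 reads, and 2 of these, HIST1H2AM and HIST1H2AJ, were called lower, the latter with 50 and 8 reads (-2.17, -3.53 to -1.16). Over all such genes with enough reads 10.9% were called lower. Among genes with fewer reads, HIST1H1B, which encodes linker histone H1.5, had 40 and 4 reads, HIST1H3I 34 and 2, HIST1H3F 23 and 2, and HIST1H4D 14 and 0. The exceptions with the most reads were HIST1H2AL with 13 and 26, HIST1H3C with 20 and 20, and HIST1H1E with 19 and 18, where equal counts give a higher CPM in the smaller MPS1i library. In J2, 25 of 35 histone genes with antisense reads had a higher CPM with MPS1i, against 65.4% of all genes, and 1 histone gene alone had 50 reads.

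Most antisense regions in Input spanned a whole coding exon. There, 44 of 52 covered the whole coding exon, 32 had an edge within 50 bases of the annotated gene start, 18 within 50 bases of the annotated end, and 9 both. Their median length was 678 bases. The region over HIST1H2AG (chr6:27133037-27133537, minus strand) had its edges 5 bases before the GENCODE start and 2 bases past the RefSeq end. The longest, 14233 bases at chr6:26124151-26138383 on the minus strand, had an edge 6 bases inside HIST1H2AC and ran along most of its long GENCODE form. In J2, 22 of 76 antisense regions covered the coding exon, with a median length of 364 bases.

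By histone type the antisense ratio in Input was below 0 in every type. H4 genes had 96 reads with DMSO and 13 with MPS1i (-2.44, -3.45 to -1.65), H3 genes 219 and 68 (-1.28, -1.70 to -0.89), and H1 genes 120 and 39 (-1.21, -1.78 to -0.69). H2A genes had 371 and 146 reads, which was not 2-fold (-0.95, -1.23 to -0.67). H2B genes had 2477 and 967 (-0.96, -1.07 to -0.85), and 218 and 65 without the HIST1H2BO region (-1.34, -1.77 to -0.94). These ratios moved further below 0 under the other scalings of Input, which shift all ratios down.

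Sense reads past the annotated ends showed the reverse. There were 845 in DMSO Input and 2686 in MPS1i Input, with a log2 ratio of 2.07 (1.95 to 2.18). They were 11.7% and 23.6% of the cluster's reads, and 26.1% and 44.7% without the most-read stretches. In J2 there were 1097 and 3017, with a log2 ratio of 2.01 (1.91 to 2.11). TMM scaling gave 1.78 in Input and 1.44 in J2. Reads elsewhere were also called higher with MPS1i in Input, with 313 and 526 reads (1.15, 0.94 to 1.35). In J2 they were too, with 537 and 869 (1.24, 1.09 to 1.40). TMM factors brought these ratios to 0.86 and 0.67, under 2-fold. Of 45 genes with downstream reads in Input, 43 had a higher CPM with MPS1i, and all 26 with enough reads were called higher. Over downstream sense reads of all protein-coding genes, placed by GENCODE 29 alone, 29.5% of 2073 genes with enough reads were called higher in Input, with a median log2 ratio of 0.36. The median of the 26 histone genes was 2.36. The 2 exceptions were HIST1H2BH with 9 and 3 reads and HIST1H3A with 26 and 17. In J2 all 47 histone genes with downstream reads had a higher CPM, and 23 of 26 with enough reads were called higher (median 2.38), against 29.7% of 3385 genes (median 0.36). With TMM factors 23 of these histone genes were called higher in Input and 20 in J2.

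**Figure D3:**
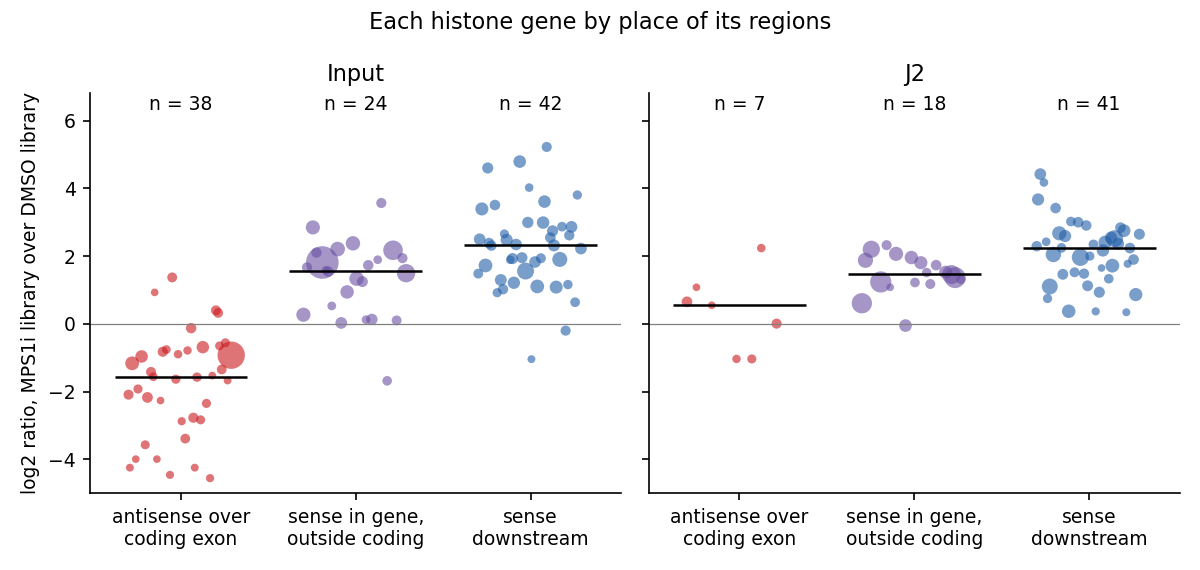
Each point is 1 histone gene with at least 10 reads in the pair, its area growing with the reads; the y axis is the log2 ratio of CPM, MPS1i over DMSO, in Input (left) and J2 (right), and black lines are medians. Input medians are -1.57 for antisense reads over coding exons (38 genes), 1.56 for sense reads in the gene outside coding exons (24 genes) and 2.31 for sense downstream reads (42 genes).

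The linker and core genes with clear downstream reads gave these values. HIST1H4C, an H4 gene, had 11, 106, 10 and 91 reads. Its log2 ratio was 3.61 (2.77 to 4.71) in Input and 3.67 (2.79 to 4.84) in J2. HIST1H4A, also an H4 gene, had 5, 115, 19 and 68 reads, with ratios of 4.79 (3.66 to 6.57) and 2.36 (1.64 to 3.20). Both MPS1i libraries were far above their partners for these H4 genes. HIST1H3B, which encodes H3.1, had 133, 298, 37 and 163 reads (1.56, 1.26 to 1.87, and 2.67, 2.17 to 3.24). A single region, described in the next paragraph, held 19 and 186 of its Input reads. HIST1H3C, another H3 gene, had 50, 126, 22 and 103 reads (1.72, 1.25 to 2.23, and 2.75, 2.10 to 3.51). HIST1H1C, the gene of linker histone H1.2, had 16, 99, 8 and 27 reads, called higher in Input (2.99, 2.26 to 3.89) and without enough reads in J2. At the low end, HIST1H3G had 16, 19, 86 and 76 reads, too few in Input, and was not called in J2.

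Some of the largest single ratios were also of this kind. The region chr6:26029547-26030225 on the minus strand, downstream of HIST1H3B, had 19 and 186 reads in Input (3.66, 3.005 to 4.45). The region chr6:26171369-26171911 on the plus strand begins 20 bases past the annotated end of HIST1H2BD, an H2B gene, and had 15 and 123 reads in Input (3.39, 2.66 to 4.31). Its J2 counterpart had 126 and 336 reads (1.96, 1.66 to 2.27). In J2 the region chr6:27134912-27136264 on the minus strand, past the RefSeq end of HIST1H2BK, had 1 read with DMSO and 52 with MPS1i, a log2 ratio of 5.68 with an interval of 3.71 to 11.6.

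With the most-read stretch of HIST1H2BK left out, sense reads in Input were densest close to the coding end. With it, the bin from 7.5 to 10 kb was densest, at 11.2 and 39.6 CPM per kb. Within 500 bases of it, sense regions outside coding exons held 3.66 CPM per kb of region in DMSO Input and 15.1 in MPS1i Input. From 5 to 7.5 kb they held 1.16 and 2.35 CPM per kb. In J2 the values were 1.28 and 4.78 CPM per kb in the first 500 bases, 2.04 and 6.84 in the next 500, and 0.885 and 2.01 from 5 to 7.5 kb, so the highest density lay past the first 500 bases. Each of the 7 distance bins to 10 kb was called higher with MPS1i in both tables. With TMM factors the bin from 5 to 7.5 kb was no longer 2-fold in Input (0.72), nor were the bins from 2 to 7.5 kb in J2 (0.61 to 0.79). Log2 ratios ran from 1.01 to 2.44 in Input and from 1.18 to 2.04 in J2, with the most-read stretch left out.

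**Figure D4:**
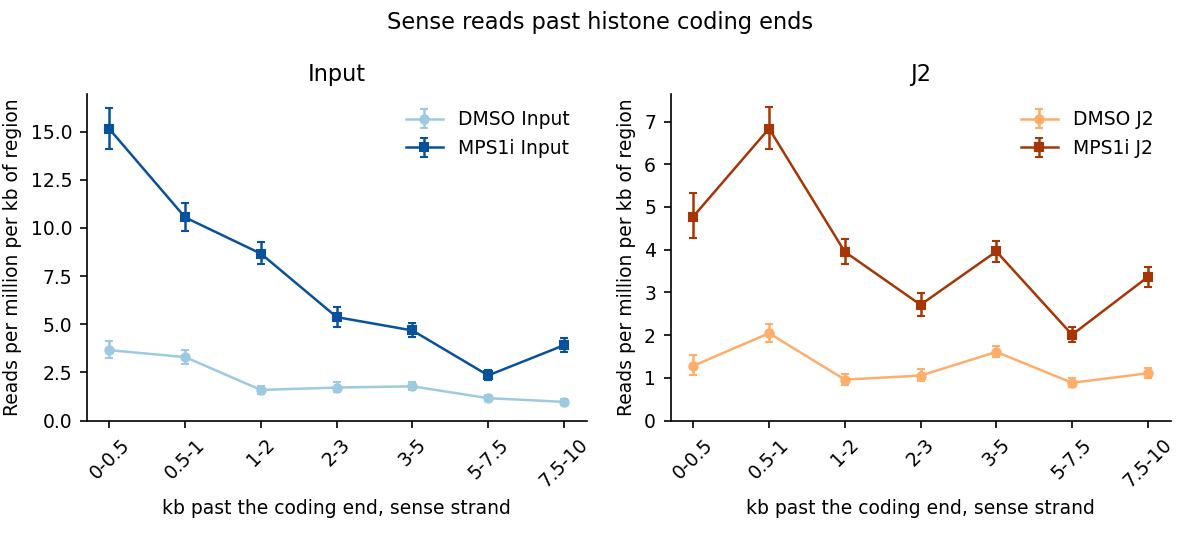
Sense CPM per kb of region (y axis) by distance past the histone coding end in kb (x axis), in Input (left) and J2 (right), without the most-read stretch of HIST1H2BK; error bars are exact Poisson 95% intervals. The MPS1i line lies above the DMSO line in every bin, and in Input it falls from 15.1 in the first bin to 2.35 between 5 and 7.5 kb.

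On the sense strand the stem-loop lay in no region of either table (0 of 20 sites), though some antisense regions covered it. Regions that began within 1 kb past it on the sense strand held 306 reads in DMSO Input and 855 in MPS1i Input, a log2 ratio of 1.88 (1.69 to 2.07). In J2 they held 270 and 679, also 1.88 (1.67 to 2.09). Of 19 genes with reads there in Input, 17 had a higher CPM with MPS1i, and 7 of 8 with enough reads were called higher. In J2 it was 17 of 18 genes, and 5 of 6 called. In the kilobase past the coding end of all protein-coding genes, 15.3% of genes with enough reads were called higher in Input and 15.7% in J2. That kilobase can lie inside the annotated transcript, unlike the stretch past a stem-loop, so this comparison is rough. For sense reads past the annotated ends of all genes the shares were 29.5% and 29.7%. HIST1H2AI had the most: the first region began 18 bases past its stem-loop, and the regions of the kilobase had 92, 182, 74 and 196 reads. HIST1H2BG had 51, 180, 51 and 147 reads, again from 18 bases past the site in Input. HIST1H2BC, with 24, 26, 10 and 9 reads, was not called in Input and had too few reads in J2. HIST1H3G, with 7, 2, 16 and 7, was lower in CPM in both tables on too few reads to call. Most reads counted past HIST1H2AI, 76, 146, 65 and 164, came from the region chr6:27808966-27810051 and its J2 counterpart. That region touches the RefSeq start of HIST1H3H by 1 base and is also counted within that gene. The region nearest the HIST1H2AI stem-loop had 16, 36, 9 and 32 reads, without enough in J2 for a call.

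Sense reads inside annotated genes but outside coding exons lie in the longer annotated forms of some genes. Reads before and past the coding exon are pooled here. For example, the J2 region chr6:26173245-26173691 lies before the HIST1H2BE coding exon at chr6:26183796-26184173. They were 2751 in DMSO Input and 6930 in MPS1i Input (log2 ratio 1.73, 1.67 to 1.79), and 2023 and 3496 in J2 (1.34, 1.26 to 1.42). The J2 ratio was 0.77 with TMM factors and no longer 2-fold. In Input 10 of 14 histone genes with enough reads were called higher, with a median of 1.52. Over all protein-coding genes with enough reads, placed by GENCODE spans alone, 10.4% were called higher, with a median of -0.35. In J2 10 of 12 histone genes were called higher, and 6 of the 12 with TMM factors. Over all protein-coding genes it was 12.7%, with medians of 1.63 for the histone genes and -0.38 for all. These comparisons are rough. RefSeq spans were used for the histone genes only, and over all genes this place takes in introns, which most genes of the cluster lack.

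In Input most were placed in HIST1H2BK (1751 and 4664 reads, against 422 and 680 in J2), whose RefSeq form spans chr6:27138293-27146858. A region of 203 bases at chr6:27138540-27138742 on the minus strand, annotated as an LTR48B repeat near the far end of that form, had 1691 and 4469 reads in Input (1.80, 1.72 to 1.88). Its J2 counterpart of 139 bases had 271 and 556 (1.58, 1.37 to 1.80). This stretch also overlaps, on the opposite strand, the GENCODE start of HIST1H4I at chr6:27138588, and is annotated as promoter of that gene. Its place in HIST1H2BK follows from the RefSeq span, and which transcript the reads came from was not tested. It was the most-read histone region of both MPS1i libraries. Without it and the HIST1H2BO stretch, sense reads in genes were 1060 and 2461 in Input (1.61, 1.51 to 1.72) and 1752 and 2940 in J2 (1.29, 1.21 to 1.38).

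Other genes with long forms moved by different amounts. HIST1H2BC, spanning chr6:26113170-26123926 in RefSeq, had 178, 610, 240 and 450 reads, called higher in both (2.17, 1.93 to 2.42, and 1.45, 1.23 to 1.69), though the J2 ratio was 0.88 with TMM factors. Its distal regions carry the name of HIST1H1T, the testis linker histone gene, in the tables. HIST1H2BE had 30, 166, 111 and 350 reads (2.85, 2.30 to 3.48, and 2.20, 1.89 to 2.53). HIST1H4H, an H4 gene, had 190, 407, 387 and 682 (1.49, 1.24 to 1.75, and 1.36, 1.18 to 1.55), the latter 0.79 with TMM factors. HIST1H2AC, an H2A gene, was called in neither, with 105, 96, 448 and 467 reads and ratios of 0.27 (-0.15 to 0.68) and 0.61 (0.42 to 0.80). With TMM factors these ratios of HIST1H2AC were -0.02 in Input and 0.04 in J2. Sense reads past the annotated end of HIST1H2AC were called higher in both, at 4.60 in Input and 2.54 in J2. With TMM factors those were 4.31 and 1.97.

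By type, all sense reads outside coding exons were higher with MPS1i in Input. H1 genes had 58 and 177 reads (1.999, 1.57 to 2.46), H2A 258 and 553 (1.496, 1.28 to 1.72), H2B 2399 and 6723 (1.88, 1.82 to 1.95), H3 506 and 1099 (1.52, 1.36 to 1.67) and H4 375 and 1064 (1.90, 1.73 to 2.08). In J2 the counts were 37 and 121 for H1 (2.24, 1.72 to 2.83), 1476 and 3425 for H2B (1.76, 1.67 to 1.85), 444 and 972 for H3 (1.68, 1.52 to 1.84) and 589 and 1244 for H4 (1.63, 1.48 to 1.77). H2A genes had 574 and 751 in J2, which was not 2-fold (0.94, 0.78 to 1.10), and 467 of the MPS1i reads were those within HIST1H2AC. Without its most-read stretch, H2B had 708 and 2254 reads in Input (2.07, 1.95 to 2.19).

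Among the sums as the tables name them, the other leading ones were as follows. HIST1H2BE on the plus strand had 45, 298, 241 and 731 reads, called higher in both. HIST1H2BJ on the minus strand, an H2B gene, had 97, 229, 298 and 502, called higher in both, though under TMM its J2 ratio of 0.73 was not 2-fold. The plus-strand sum named HIST1H1E had 5, 70, 29 and 121 reads, called higher in both (4.08, 2.91 to 5.87, and 2.59, 2.01 to 3.25). Of these, 5, 70, 29 and 117 were in regions annotated as intergenic. They need not be reads of the HIST1H1E gene, which starts at chr6:26156354. For example, the region chr6:26140851-26140940 lies between that start and the end of HIST1H2AC at chr6:26139116. HIST1H3J had 74, 220, 91 and 231 and HIST1H3H 91, 193, 84 and 224, both H3 genes and both called higher in both tables. Of the well-read sums, HIST1H1A on the plus strand (antisense, 80, 61, 220 and 272 reads) and HIST1H3G (34, 36, 158 and 116) were called in neither. The 3 sums called lower in Input were antisense: HIST1H2AM (134 and 45), HIST1H2BK (86 and 32) and HIST1H2AJ (56 and 21). The sense sums alone were 29 higher and 0 lower of 35 in Input, and 25 higher and 0 lower of 30 in J2.

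J2 against Input within the same cells compares what the antibody precipitated with what the lysate held. With DMSO, 36 sums had enough reads, of which 4 were called higher in J2 and 16 lower, against 18.8% and 12.9% of all sums. Their median log2 ratio was -0.75, and that of all sums 0.28. With MPS1i, 4 of 56 were called higher and 23 lower, against 17.9% and 10.7%, with medians of -0.69 and 0.28. The 4 higher with DMSO were HIST1H2AC (plus strand, 1.47, 1.17 to 1.80), HIST1H2BE (plus, 1.79, 1.34 to 2.30), HIST1H2BJ (minus, 1.00, 0.67 to 1.35) and HIST1H3G (minus, 1.58, 1.06 to 2.18). HIST1H2AC (1.69, 1.38 to 2.01) and HIST1H3G (1.21, 0.67 to 1.80) were called higher again with MPS1i, beside the antisense sums of HIST1H1A (1.68, 1.28 to 2.11) and HIST1H2AG (2.87, 1.77 to 4.47). The latter had 12, 6, 3 and 65 reads, 52 of the last from the region past HIST1H2BK described above. The regions of the tables differ. Over the 156 regions matched one to one, which hold fewer reads, 9 sums had enough reads with DMSO, of which 1 was lower, and 12 with MPS1i, of which 4 were lower.

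By place, over all regions, antisense reads over coding exons were the lowest in J2 relative to Input. Their log2 ratio was -5.26 (-5.53 to -5.01) with DMSO and -3.65 (-3.93 to -3.40) with MPS1i. Without the most-read stretches it was -3.88 (-4.19 to -3.60) and -1.95 (-2.27 to -1.65), and over matched regions -2.80 (-3.31 to -2.34) and -0.52 (-1.07 to 0.04). Over matched regions with MPS1i, reads elsewhere were lower, at -0.83 (-1.48 to -0.19). Downstream sense reads were near even, at -0.24 (-0.37 to -0.11) and -0.30 (-0.37 to -0.22). Sense reads in genes were at -1.06 (-1.14 to -0.98) and -1.45 (-1.51 to -1.40), and at 0.11 and -0.21 without the most-read stretches. The histone RNA outside coding exons thus lay near the Input level in J2, once that stretch of HIST1H2BK was set aside.

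The change of the J2-to-Input ratio with MPS1i was small for most sums. A sum needed 50 J2 reads and 20 Input reads over the pair. With a delta-method interval on counts plus 0.5, 5 of 39 sums were called higher and 2 lower, against 10.9% and 7.06% of all sums. The median was -0.07, and 0.05 over all sums. Higher were HIST1H4B (minus, 102, 147, 18 and 66 reads, 1.47, 0.64 to 2.30), HIST1H2AL (plus, 1.34, 0.07 to 2.60) and the antisense sums of HIST1H4H (1.59, 0.92 to 2.25), HIST1H4J (1.91, 0.93 to 2.90) and HIST1H2AC (1.90, 0.50 to 3.30). Lower were HIST1H2BK (minus, 45, 175, 108 and 107 reads, -1.81, -2.42 to -1.20) and HIST1H1E (-1.49, -2.87 to -0.11). For antisense reads over coding exons as a whole the change was 1.61 (1.25 to 1.97), made up of the Input ratio of -1.02 and the J2 ratio of 0.59.

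Other genes of histone supply were read from the same tables by fixed lists. Of 15 replication-dependent histone genes outside the cluster, 4 had enough reads. All 4 were called higher in Input (median 2.38), and 3 in J2 (median over the 4 of 1.89). HIST2H2BF had 70, 259, 78 and 265 reads (2.28, 1.90 to 2.69, and 2.31 in J2), and HIST3H2A 24, 104, 24 and 46. Replacement histones, which are made outside S phase, divided: 3 of 8 were called higher and 1 lower in Input, and 2 of 7 higher in J2. Over all sums 20.5% were called higher and 11.8% lower in Input. In J2 26.0% were called higher, near the share of these genes. H3F3B, a gene of H3.3, had 10, 77, 20 and 102 reads and was called higher in both, while H2AFY, which encodes macroH2A, had 710, 180, 998 and 400 and was called lower in Input.

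The factors that make and mature histone messages are read against all sums, of which 20.5% were called higher and 11.8% lower in Input, and 26.0% and 13.5% in J2. Of the transcription list, 0 of 6 were called higher and 2 lower in Input (median -0.51), and 1 of 7 higher and 2 lower in J2 (median -0.32). POU2F1, which binds the octamer, had 522, 177, 1221 and 284 reads, and E2F1 114, 30, 66 and 17; both were called lower in both tables. CCNE1, which encodes cyclin E1, was the 1 called higher in J2, with 26 and 40 reads. Of the processing and decay list, 1 of 16 were called higher and 4 lower in Input (median -0.66), and 2 of 17 higher and 4 lower in J2 (median -0.56). ZNF473, a zinc finger protein of U7-dependent cleavage, had 92, 24, 254 and 49 reads and DIS3L2, an exonuclease, 291, 58, 363 and 76, both lower in both tables. CSTF2T, a cleavage stimulation factor, had 44, 69, 63 and 207 and was higher in both. Chaperones had 0 of 15 higher and 1 lower in Input, and 1 higher and 2 lower of 15 in J2. The values of these lists are sums on each gene's own strand, in and around the gene, so they are no measure of the mature messages alone.

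Non-histone genes of the same 2 Mb gave 2 of 9 higher and 0 lower in Input (median 0.26), and 2 of 9 higher and 1 lower in J2 (median 0.57). TRIM38 was higher in both, with 44, 98, 226 and 850 reads. In each table the other 11 of the 20 listed neighbours had too few reads, and these shares lie near those of all sums.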

How the data were processed

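Total RNA and J2-bound RNA of NCI-H1944 cells were sequenced as 4 stranded libraries, 1 per group. The authors deposited raw read counts per stranded region, in 1 table for Input and 1 for J2, with HOMER's nearest gene and annotation per the file headers. The submitters' processing notes name STAR, featureCounts, HOMER, cutadapt, Trimmomatic and Trim Galore and build GRCh38, without roles. How regions were defined, and how multimapped or duplicate reads were handled, is not given in the sources used here. Every per-sample column was used.

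Counts were summed by gene and strand and scaled to each table's column total. Ratios add 0.5 to each count; exact Clopper-Pearson 95% intervals (Wilson for shares of a library) and the rule of 50 reads, 2-fold and an interval without 1 were applied to all sums of each table, and to all regions. Reads are not independent molecules, so intervals cover counting error only. Places use GENCODE 29 coding exons and the union of GENCODE and RefSeq gene spans; matched regions overlap reciprocally by 90%. The tools were Python 3.11.15, pandas 2.3.3, scipy 1.17.1, edgeR 4.0.16 (TMM factors) and DESeq2 1.42.0 (size factors), the last pair for scaling only. The call rule was tested on simulated counts. Member regions overlapped tRNA genes in 27 Input and 5 J2 cases, with 62, 38, 4 and 6 reads.

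By the rule for names, values are given for the 25 sums with the most reads, called sums, the most-read and leading regions, and at most 4 called genes a list; of these, those a result turns on are printed and the others counted. The members and lists were chosen with earlier results of these data known. Place by gene, stem-loop windows, antisense outlines, and the calls by place over all protein-coding genes (GENCODE 29 spans, coding end in place of the stem-loop) were added after seeing the data.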

Additional observations from a re-analysis of the deposited data

How the results depend on the processing

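No paired analysis was possible because each group has 1 library. With 1 library a group, depth limits calls: 54 Input and 63 J2 histone sums had under 50 reads. The comparisons are taken in the order J2 (MPS1i against DMSO), Input (MPS1i against DMSO), DMSO (J2 against Input), MPS1i (J2 against Input) and change. Requiring 20 counts gave 50 J2 sums higher, 10 Input sums lower, 38 and 35 sums lower in J2 against Input with DMSO and MPS1i, and 13 changes higher. With no minimum these were 57, 12, 55, 41 and 23, and 7 sums were higher in J2 with MPS1i. Counting 1 read per region left too few reads: 1 Input sum was higher and 0 lower, 0 sums were called in the other comparisons, and the whole-cluster log2 ratio fell from 1.54 to 0.71 in J2 (MPS1i against DMSO), and went from -1.54 to -0.29 (DMSO) and -1.06 to -0.64 (MPS1i) for J2 against Input. Counting only regions that overlap the annotated gene on its strand left 8 higher in J2 and 8 in Input with 0 lower in Input, 1 lower with DMSO, 2 higher and 4 lower with MPS1i, and 0 changes in either direction, and turned the whole-cluster J2 to Input ratios to 0.26 (DMSO) and 0.12 (MPS1i); the cause was not tested. Matched regions gave 1 higher and 1 lower (-0.26) with DMSO, 1 higher and 4 lower (-0.18) with MPS1i, and 1 change each way. Leaving out the most-read region of each sum gave 0 Input sums lower, 7 and 8 sums lower in J2 (-0.06 and -0.08) and 1 change lower. Leaving out the 2 most-read stretches, chosen after seeing the data, gave -0.51 and -0.26. The whole-cluster Input ratio of 1.06 was 0.98 without the mitochondrial genome, 0.68 with median-of-ratios and 0.77 with TMM factors, both with 5 sums lower; TMM gave 0.96 in J2 and 4 changes lower, and thinning to equal depth 1 change lower. Ratios by gene, type, distance bin and stem-loop window were also followed under these settings, including TMM factors chosen after seeing the data. Of these, 443 kept their result, among them ratios with no call in either setting. Another 32 lost a call and 11 gained one, and 0 of those with a call turned direction. Sense reads within genes in J2 lost their call (0.77).

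Antisense shares of the cluster's reads were 44.3% in DMSO Input, 1.505% in DMSO J2 and 0.958% in MPS1i J2 by region midpoint, 9.26%, 6.53% (MPS1i Input) and 3.40% (MPS1i J2) with 1 read per region, and 31.6% and 5.51% of Input reads without the most-read stretches. Downstream shares (Input with DMSO and with MPS1i, then J2 likewise) were 14.8%, 26.3%, 32.1% and 43.6% by midpoint, 39.9%, 49.6%, 47.1% and 51.6% with 1 read per region, and 26.1%, 44.7%, 31.4% and 43.4% without the most-read stretches.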
